A study of Mus musculus with 19 samples.

Results

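The 9 serpin genes of mouse liver followed here were *Serpina1a*, *Serpina1b*, *Serpina1c*, *Serpina1d* and *Serpina1e*, *Serpina3k*, *Serpina3m* and *Serpina3c*, and *Serpina6*. They were taken by name from the deposited count table and make 9 of the 31053 genes listed in it. Liver RNA of 19 male C57BL/6 mice (strain label C57BL6J) had been read from the 3′ ends of polyadenylated RNA. The groups were vehicle-treated mice that received PBS (n = 5), thioacetamide (TAA)-treated mice that got the AAV8 TBG eGFP vector, here AAV-GFP-injected mice (n = 7), and TAA-treated mice that got AAV8 TBG miR34b/c, the miR-34b and miR-34c vectors together, here AAV-miR-34b/c-injected mice (n = 7). TAA is a liver toxin that causes fibrosis, and it was given for 12 weeks. The AAV8 vectors came after 10 weeks, and the mice were sacrificed 4 weeks later. The age of the mice is given as 6 to 8 weeks, which cannot be that of the TAA-treated mice at sacrifice. TBG is the thyroxine-binding globulin promoter, which drives expression in hepatocytes, so other liver cells were not the intended source of either transgene product. The labels call the libraries biological replicates, and they do not say whether vehicle-treated mice received a vector, so that toxin and vector cannot be told apart in comparisons with vehicle.

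Serpins are protease inhibitors that act once. An exposed stretch, the reactive centre loop, is cut by the target protease, which then becomes trapped on the inhibitor, and the residue just before the cut largely sets which protease is bound. Hepatocytes secrete most serpins of plasma. A single human gene for the elastase inhibitor alpha-1 antitrypsin corresponds to several tandem *Serpina1* copies in the mouse, the single human antichymotrypsin gene corresponds to a larger *Serpina3* cluster, and *Serpina6* encodes corticosteroid-binding globulin, the plasma carrier of glucocorticoids, which carries a serpin fold but inhibits no protease.

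The coding stretch for the reactive centre loop is shown for the *Serpina1* copies because it is where they differ most in function and because it lies in the last exon, within the part of the transcript that 3′ sequencing reads. The stretches come from the GENCODE transcripts of GRCm38 (mm10), all on chromosome 12 and on the minus strand, written 5′ to 3′ in the sense of the transcript. Capitals mark the 18 of 81 positions at which the 5 copies are not all the same.
Serpina1a: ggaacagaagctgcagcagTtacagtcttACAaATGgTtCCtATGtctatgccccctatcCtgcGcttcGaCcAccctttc
Serpina1b: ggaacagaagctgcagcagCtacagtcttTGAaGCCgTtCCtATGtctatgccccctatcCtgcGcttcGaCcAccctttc
Serpina1c: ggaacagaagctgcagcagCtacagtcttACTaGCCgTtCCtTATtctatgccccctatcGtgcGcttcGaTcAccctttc
Serpina1d: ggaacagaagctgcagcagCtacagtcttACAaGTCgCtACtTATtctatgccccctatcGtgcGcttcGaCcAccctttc
Serpina1e: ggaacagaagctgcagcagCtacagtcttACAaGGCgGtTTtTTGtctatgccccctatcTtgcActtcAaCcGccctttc

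They lie at chr12:103853750-103853830 for *Serpina1a*, chr12:103728317-103728397 for *Serpina1b*, chr12:103895087-103895167 for *Serpina1c*, chr12:103763755-103763835 for *Serpina1d* and chr12:103947093-103947173 for *Serpina1e*. The codon for the residue before the cut is ATG in *Serpina1a* and *Serpina1b*, TAT in *Serpina1c* and *Serpina1d*, and TTG in *Serpina1e*, which code for methionine, tyrosine and leucine. Pairs of copies differed at 5 to 12 of the 81 positions, whereas over the last 300 bases of the transcripts they were 92.3% to 96.3% identical. The loop stretch ends 161 bases from the transcript end in 4 copies and 162 in *Serpina1e*. The *Serpina3* loops are shown for the 2 members with the highest counts, without capitals, since insertions keep them from lining up base by base. They are on the plus strand, at chr12:104345269-104345352 for *Serpina3k* and chr12:104393769-104393858 for *Serpina3m*.
Serpina3k: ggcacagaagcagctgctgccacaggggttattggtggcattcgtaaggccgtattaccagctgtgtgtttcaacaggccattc
Serpina3m: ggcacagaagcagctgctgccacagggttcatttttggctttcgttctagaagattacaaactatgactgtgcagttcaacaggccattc

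How far reads can be assigned to 1 copy was measured on the same transcripts. Of the 401 windows of 100 bases (the read length) in the last 500 bases, 17.5% of those of *Serpina1a* occurred exactly in a transcript of another gene, the predicted gene *Gm8893* or *Serpina1c*. The share was 9.73% for *Serpina1c*, 2.74% for *Serpina1d* and 1.25% for *Serpina1b*. It was 0% for *Serpina1e*, *Serpina3k*, *Serpina3m*, *Serpina3c* and *Serpina6*. In the last 1000 bases the share was 4.44% for *Serpina3m*, whose shared windows all occurred in *Serpina3k*, and 14.9% for *Serpina1e*, 16.3% for *Serpina1b*, 21.3% for *Serpina1d*, 41.8% for *Serpina1c* and 45.3% for *Serpina1a*. With windows of 50 bases in the last 500 the shares of the *Serpina1* copies were 16.4% for *Serpina1e* to 55.4% for *Serpina1a*. Reads of *Serpina1a* are therefore the least certain of the 9 genes, and the copies were also summed to 1 feature. How reads that match several copies were counted is not stated. If they were dropped, the sum does not restore them, and it would miss more of *Serpina1a* than of *Serpina1e*. The annotated interval of *Serpina3m* begins with that of *Serpina3k*, and the exons of these 2 genes share 60 bases, while that of *Serpina1b* spans *Serpina1d*. The counting is not stated to use strand.

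The total count of a library was 2214073 to 4145454 in the vehicle group, 2463842 to 4383805 with AAV-GFP and 2717503 to 5208405 with AAV-miR-34b/c. The 9 genes together made up 3.47% to 5.92% of a library's counts. Several libraries of the same group were closer to each other than to the rest. In 7 pairs the coefficient of variation between the 2 libraries beyond counting noise, fitted in common to all genes, was 0.0729 to 0.195. These were vehicle libraries 1 and 4 and 3 and 5, AAV-GFP libraries 1 and 2 and 3 and 4, and AAV-miR-34b/c libraries 1 and 2, 3 and 4, and 5 and 7. AAV-GFP libraries 2 and 3 and 1 and 3 were also under the limit of 0.2 set for a close pair (0.197 for both), but each library was summed once, with its nearest, and the next pair, vehicle libraries 4 and 5, was at 0.201. The pairs differed by more than counting noise and were kept as separate mice, as labelled, but whether the libraries of a pair came from 1 mouse was not tested. If they did, the n of 5, 7 and 7 and the p-values that rest on them would overstate the number of mice. Each comparison was repeated with the pairs summed, which left 3, 5 and 4 samples. The hepatocyte markers *Alb*, *Apoa1*, *Cps1* and *Tf* with *Hnf4a* summed to 59749 to 76307 CPM (counts relative to the library total, scaled by TMM) in vehicle, 56523 to 64342 in AAV-GFP and 44716 to 78387 in AAV-miR-34b/c libraries, so the labelled tissue was found in every library. Over all 19 libraries the markers of macrophages summed to 246 to 551 CPM, of endothelial cells to 153 to 261, of quiescent stellate cells to 239 to 563 and of T and B cells to 10.1 to 24.3. In whole liver, fewer hepatocytes and less RNA per hepatocyte cannot be told apart.

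The 9 genes spanned a wide range of levels. A 3′ library gives about 1 read per transcript whatever its length, so that CPM can be set side by side between genes without dividing by length. Between the *Serpina1* copies the order may also depend on how many reads could be assigned. Windows shared with other genes were most frequent in *Serpina1a* and least frequent in *Serpina1e*, and their part in the order was not tested. In vehicle-treated mice *Serpina3k* was the most abundant, at 17030 ± 2183 CPM (mean ± SD, n = 5). *Serpina1e* followed at 12442 ± 1525, and then *Serpina1c* at 5113 ± 955. *Serpina1d* at 3392 ± 552 and *Serpina1b* at 3329 ± 370 did not differ beyond their spread, and *Serpina1a* was the lowest of the copies at 1715 CPM, with 1388 to 2033 over the 5 libraries. *Serpina3m* was at 313 ± 108, *Serpina6* at 108 ± 39.6 and *Serpina3c* at 6.02 ± 2.06 CPM. *Serpina3c* had 5 to 29 counts in a library, so that its changes were the least precisely measured.

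**Figure D1:**
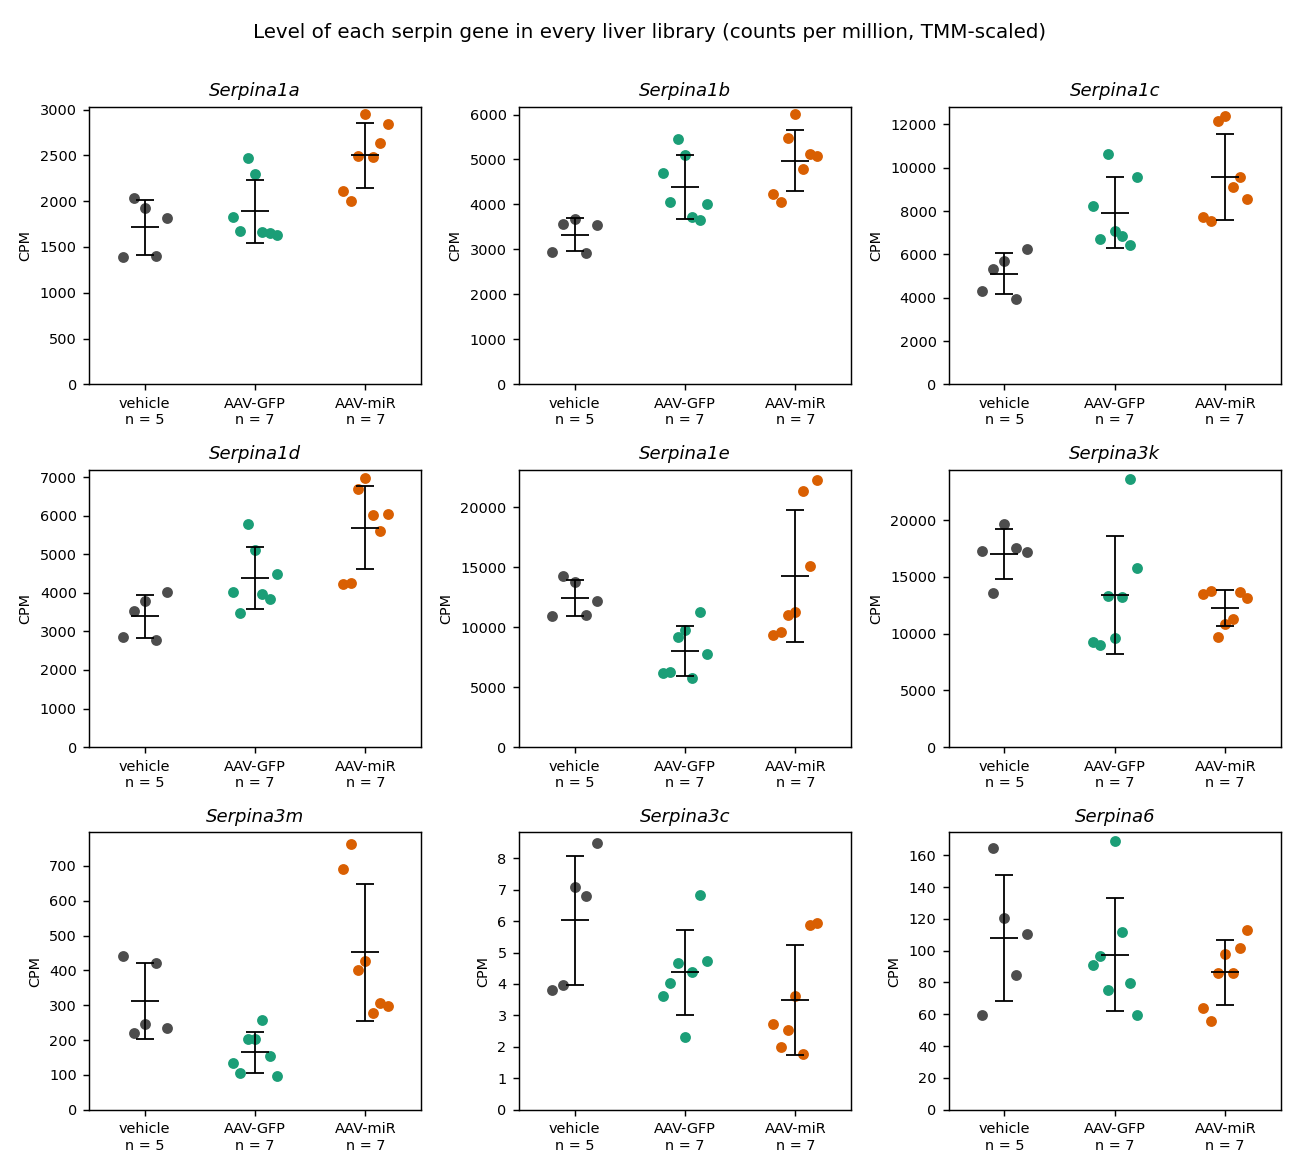
CPM of each gene (vertical axes, linear, starting at 0) in every library of vehicle-treated, AAV-GFP-injected and AAV-miR-34b/c-injected mice, with 1 point per mouse and the mean ± SD in black. The 7 AAV-miR-34b/c libraries lie above all AAV-GFP libraries for Serpina3m, and the 7 AAV-GFP libraries lie above all vehicle libraries for Serpina1c.

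The first comparison asks how the livers of TAA-treated mice with the control vector differed from vehicle. Of the *Serpina1* copies, *Serpina1c* rose and *Serpina1e* fell, and *Serpina3m* fell as well, while the summed *Serpina1* level did not pass the test. These 3 genes were the only ones of the 9 past an edgeR adjusted p of 0.05, with 12.7% of the 9522 genes tested past it. All 9 genes were tested, and their median log2 fold change was -0.14 against -0.01 over all genes.

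*Serpina1c* had 4327, 5312, 5696, 3963 and 6266 CPM in the vehicle libraries. In AAV-GFP libraries its lowest, median and highest values were 6431, 7079 and 10634 CPM. Every AAV-GFP library was above every vehicle library. The log2 fold change was 0.64 ± 0.19 (SE, edgeR adjusted p = 0.0358), and the two-sided exact permutation p of its mean log2 CPM was 0.00126, the smallest that these group sizes allow. The call was lost without vehicle library 1 (0.59, adjusted p = 0.0905), vehicle library 4 (0.57, adjusted p = 0.0993), AAV-GFP library 1 (0.63, adjusted p = 0.0637) or AAV-GFP library 3 (0.55, adjusted p = 0.0840).

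*Serpina1e*, the copy with leucine before the cut, moved the other way. Its vehicle libraries had 10937, 14270, 13743, 11045 and 12213 CPM. Its AAV-GFP libraries had 5775 at the lowest, 7746 at the median and 11272 at the highest. Of the 7 AAV-GFP libraries 6 were below all vehicle libraries, and AAV-GFP library 6 was within their range. The log2 fold change was -0.63 ± 0.20 (edgeR adjusted p = 0.0418, exact permutation p = 0.0101). The call rested on nearly every library, since it was kept in 3 of the 12 fits that left out 1, those without AAV-GFP library 4, 6 or 7. The adjusted p reached 0.0925 without AAV-GFP library 2, and the log2 fold change stayed between -0.73 and -0.56 in all 12.

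The other copies had higher means in AAV-GFP than in vehicle livers, none past the threshold in edgeR. *Serpina1b* was at 4386 ± 703 CPM (log2 fold change 0.40 ± 0.17, edgeR adjusted p = 0.123), *Serpina1d* at 4386 ± 806 (0.37 ± 0.18, adjusted p = 0.173) and *Serpina1a* at 1888 ± 345 (0.14 ± 0.18, adjusted p = 0.621). *Serpina1b* passed in DESeq2 (adjusted p = 0.0403) and in limma-voom with sample quality weights, which gives variable libraries less weight and is called weighted limma-voom here (adjusted p = 0.0221). Summed, the 5 copies were at 25991 ± 3411 CPM in vehicle and 26616 ± 4074 in AAV-GFP livers, a log2 fold change of 0.04 ± 0.19 (edgeR adjusted p = 0.919).

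Because shares within the *Serpina1* sum do not depend on how libraries are scaled, the balance between the copies was also read from them. Shares sum to a whole, so that the fall of 1 share raises others, and a change in share is not a change in level. The size of a share may also depend on how many reads of each copy could be assigned. *Serpina1e* gave 48.7%, 49.7%, 47.7%, 49.96% and 43.8% of the *Serpina1* counts in the 5 vehicle libraries. In AAV-GFP libraries 1 to 7 it gave 24.8%, 28.3%, 27.4%, 33.2%, 26.2%, 42.0% and 28.2%. All 7 shares were below all 5 of vehicle, and AAV-GFP library 6 was the nearest. The difference was -18.0 percentage points (two-sided exact permutation test, p = 0.00253, adjusted p = 0.0142 over 5 copies and 3 comparisons). The share of *Serpina1c* was 19.6% ± 1.77 in vehicle and 29.9% ± 4.23 in AAV-GFP livers (exact permutation, adjusted p = 0.0142), with no overlap. *Serpina1b* went from 12.8% ± 0.31 to 16.6% ± 1.89 and *Serpina1d* from 13.0% ± 0.83 to 16.5% ± 1.26 (exact permutation, adjusted p = 0.0142 for both), whereas *Serpina1a* was at 6.57% ± 0.35 and 7.10% ± 0.74 (exact permutation, adjusted p = 0.236). The 4 calls on shares held without any 1 of the 12 libraries. With close pairs summed to 3 and 5 samples, the difference for *Serpina1e* was -17.6 points and the exact permutation adjusted p was 0.134 for each of the 4. The smallest unadjusted p that these sizes allow is 0.0179, which *Serpina1d* and *Serpina1e* reached. A share could therefore hardly pass here after adjustment over 15 tests.

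**Figure D2:**
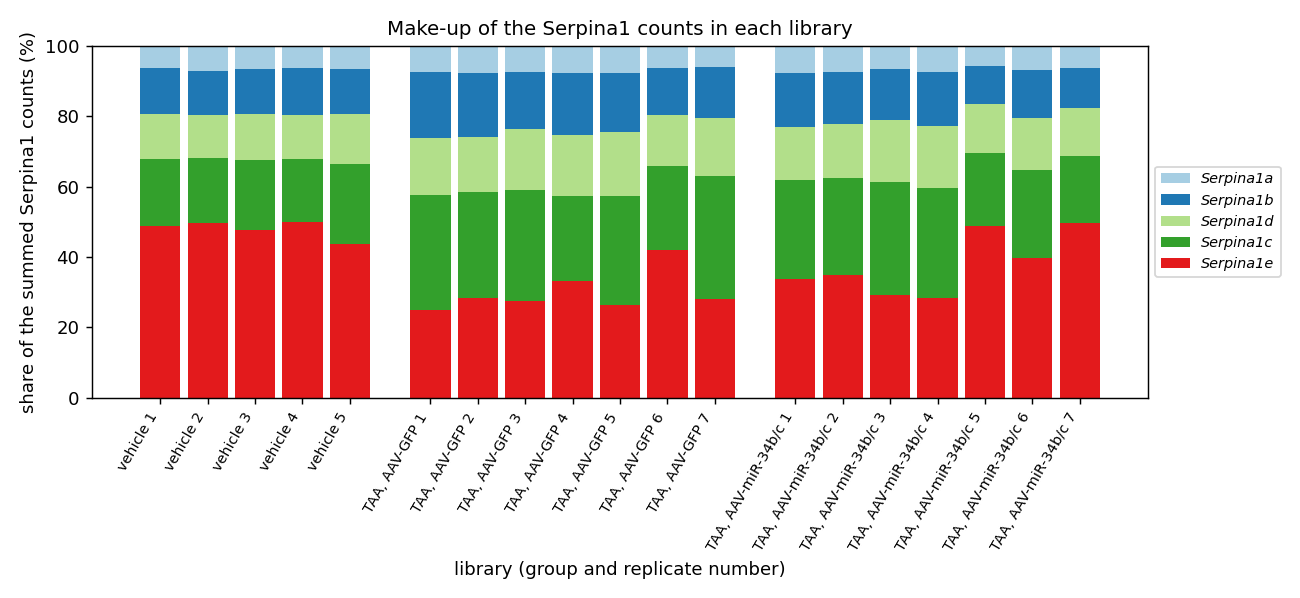
Share of each copy in the summed Serpina1 counts (vertical axis, percent), with 1 stacked bar per library, grouped by treatment and replicate number. Serpina1e (bottom segment) gives 43.8% to 49.96% with vehicle, 24.8% to 42.0% with AAV-GFP and 28.4% to 49.8% with AAV-miR-34b/c.

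*Serpina3m*, a minor member of the *Serpina3* cluster, had 440, 221, 247, 422 and 235 CPM in vehicle libraries and 97.0, 153 and 257 CPM at the lowest, median and highest of the AAV-GFP libraries. All AAV-GFP libraries but library 5 were below the lowest vehicle library. The log2 fold change was -0.92 ± 0.24 (edgeR adjusted p = 0.0176, exact permutation p = 0.0139). Vehicle libraries 1 and 4, a close pair, were the high ones, and the call was lost without library 1 (-0.76, adjusted p = 0.0738) or library 4 (-0.78, adjusted p = 0.0731). *Serpina3k* was at 17030 ± 2183 CPM in vehicle and 13407 ± 5194 in AAV-GFP livers (log2 fold change -0.34 ± 0.23, edgeR adjusted p = 0.335), and AAV-GFP library 6 had 23658 CPM, above all others of both groups. Without it the log2 fold change was -0.54 (edgeR adjusted p = 0.0598). *Serpina3k* passed in weighted limma-voom (-0.55, adjusted p = 0.0251). In edgeR *Serpina3c* (-0.46 ± 0.32, adjusted p = 0.359) and *Serpina6* (-0.14 ± 0.25, adjusted p = 0.740) did not pass.

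With close pairs summed, 0 of the 9 genes passed in this comparison by edgeR (3 at an unadjusted p below 0.05) and 193 of all genes did, and the log2 fold changes were 0.60 for *Serpina1c* (edgeR adjusted p = 0.253), -0.65 for *Serpina1e* (adjusted p = 0.244) and -0.84 for *Serpina3m* (adjusted p = 0.176). Over 7 other alternatives of filter, scaling, tool and groups fitted, the adjusted p of *Serpina1c* was 0.00446 to 0.0533, of *Serpina1e* 0.00501 to 0.0764 and of *Serpina3m* 0.00626 to 0.0342. Of the markers of other liver cells, the 6 of activated stellate cells summed to 31.9 to 95.9 CPM in vehicle and 91.0 to 211 in AAV-GFP libraries (2 of 4 tested rose), and the 5 of cholangiocytes to 18.2 to 40.8 and 52.3 to 94.2 (1 of 2 tested rose). With at least 10 counts asked of every library, 2 of the activated stellate cell markers were tested and 1 rose. Of macrophage markers 2 of 7 fell (median sum 415 CPM in vehicle and 275 in AAV-GFP libraries), and of quiescent stellate cell markers 1 of 4 fell (484 and 396 CPM). The part of these cells in the changes of the serpins was not tested.

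**Figure D3:**
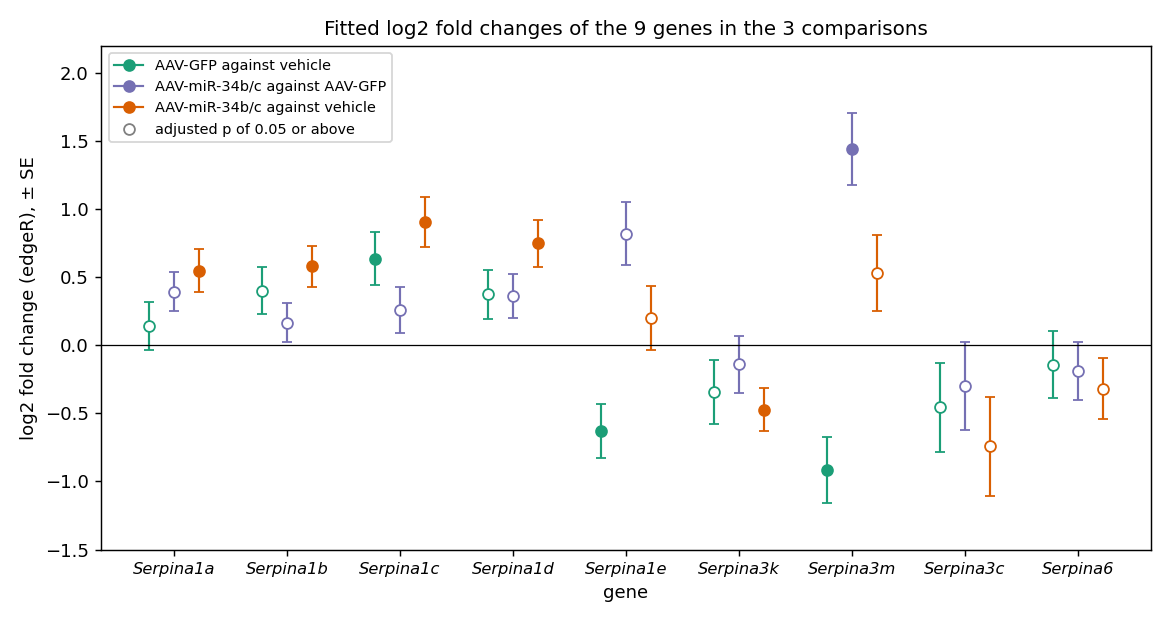
Log2 fold change (vertical axis, edgeR, ± SE) of each of the 9 genes in the 3 comparisons, which share groups of mice, with filled points for an adjusted p below 0.05. Serpina3m has the largest change, 1.44 in AAV-miR-34b/c against AAV-GFP, and Serpina1a to Serpina1d are the 4 filled points above 0 in AAV-miR-34b/c against vehicle.

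The next comparison asks what the miR-34b/c vectors changed in TAA-treated livers. *Serpina3m* rose and was the 1 gene of the 9 past the threshold, with 3.36% of the 9252 genes tested past it. All 7 AAV-miR-34b/c libraries were above all 7 AAV-GFP libraries for this gene. The other 8 genes were tested and did not pass in edgeR with these groups alone, and the median log2 fold change of the 9 was 0.26 against -0.01 over all genes.

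*Serpina3m* had 691, 763, 401, 426, 278, 305 and 299 CPM in AAV-miR-34b/c libraries 1 to 7, against 134, 107, 204, 202, 257, 153 and 97.0 in AAV-GFP libraries 1 to 7. The lowest of the former was thus above the highest of the latter. The log2 fold change was 1.44 ± 0.27 (edgeR adjusted p = 0.00408), and the exact permutation p was 0.000583, the smallest possible with 7 against 7 mice. The gene passed in each of the 14 fits that left out 1 library, with log2 fold changes of 1.27 to 1.59. It did not pass with close pairs summed (1.38, adjusted p = 0.0830), and its adjusted p was at most 0.00471 over the same 7 alternatives.

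Within each group, the library or close pair with the most *Serpina3m* also had the highest sum of neutrophil markers. The 6 markers (*S100a8*, *S100a9*, *Ly6g*, *Mpo*, *Elane* and *Retnlg*) summed to 1922, 1910, 395, 422, 65.0, 138 and 61.0 CPM in AAV-miR-34b/c libraries 1 to 7. In the vehicle group the sums were 80.1, 28.7, 16.8, 76.1 and 18.2 CPM, with libraries 1 and 4 highest for both measures. AAV-GFP library 5, the highest of its group for *Serpina3m*, had 71.7 CPM, the highest sum of its group, of which the range was 13.5 to 71.7. Below the top the order was not kept. AAV-GFP library 6 had a marker sum of 52.6 CPM but less *Serpina3m* than libraries 3 and 4, with sums of 27.5 and 36.7. AAV-miR-34b/c libraries 5 and 7 had lower sums than AAV-GFP library 5 but more *Serpina3m*. Of these 6 markers 3 were tested (*S100a8*, *S100a9* and *Retnlg*) and all 3 rose between the vectors. *Retnlg* passed the filter through the AAV-miR-34b/c group, in which it was high, and with at least 10 counts asked of every library the other 2 were tested and rose. *Ly6g* was at 0 in all vehicle libraries. The part of neutrophils or of their markers in the level of *Serpina3m* was not tested.

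*Serpina1e* had 9378, 9597, 11004, 11238, 21340, 15106 and 22304 CPM in AAV-miR-34b/c libraries 1 to 7, where libraries 5, 6 and 7 were above all AAV-GFP libraries and the others were within their range. The log2 fold change was 0.82 ± 0.23 (edgeR adjusted p = 0.0604, exact permutation p = 0.00874). *Serpina1e* passed in DESeq2 (adjusted p = 0.0137), weighted limma-voom (adjusted p = 0.0131) and with all 3 groups in a single edgeR fit (adjusted p = 0.0237). The edgeR adjusted p also crossed the threshold without AAV-GFP library 6 (0.92, adjusted p = 0.0387), AAV-miR-34b/c library 1 (0.90, adjusted p = 0.0414) or library 2 (0.90, adjusted p = 0.0404). Libraries 5, 6 and 7, high in *Serpina1e*, were the 3 lowest of their group in *Serpina3m*. The share of *Serpina1e* in the *Serpina1* sum was 33.8%, 35.0%, 29.1%, 28.4%, 48.8%, 39.7% and 49.8% in these libraries, so that libraries 5 and 7 were within the range of vehicle and the other 5 within that of AAV-GFP. The mean difference from AAV-GFP was 7.79 points (exact permutation p = 0.0740, adjusted p = 0.123), and without AAV-GFP library 6 it was 9.78 points and passed (exact permutation, adjusted p = 0.0350).

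The other copies had log2 fold changes of 0.17 to 0.40 from AAV-GFP to AAV-miR-34b/c livers, with edgeR adjusted p of 0.169 for *Serpina1a*, 0.278 for *Serpina1d*, 0.520 for *Serpina1c* and 0.660 for *Serpina1b*. In weighted limma-voom *Serpina1a* (adjusted p = 0.0328) and *Serpina1d* (adjusted p = 0.0323) passed. With library size alone the value of *Serpina1b* was -0.02 and the median of all genes was -0.20, so that the gene lay above that median under both scalings. Summed, the 5 copies were at 37010 ± 6984 CPM against 26616 ± 4074, a log2 fold change of 0.46 ± 0.17 (edgeR adjusted p = 0.165), and 5 of the 7 AAV-miR-34b/c libraries were above all AAV-GFP libraries. Among the shares, that of *Serpina1b* fell by 2.91 points to 13.6% ± 1.81 (exact permutation, adjusted p = 0.0350). The level of *Serpina1b* had a higher mean in AAV-miR-34b/c livers (4967 CPM against 4386), and that of *Serpina1e* differed more (14281 against 8027 CPM on average), so its smaller share is no fall in level. The call on the share was kept in 6 of 14 fits that left out 1 library and was lost without any 1 of AAV-GFP libraries 1 to 5 or AAV-miR-34b/c libraries 5 to 7 (adjusted p = 0.0503 to 0.0637). With close pairs summed it was lost too (-2.50 points, exact permutation adjusted p = 0.214).

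*Serpina3k* was at 12253 ± 1627 CPM in AAV-miR-34b/c livers, a log2 fold change of -0.14 ± 0.21 from AAV-GFP (edgeR adjusted p = 0.831). The sign rested on AAV-GFP library 6, without which the value was 0.06. *Serpina3c* (-0.30 ± 0.33, adjusted p = 0.746) and *Serpina6*, the glucocorticoid carrier (-0.19 ± 0.21, adjusted p = 0.753), did not pass. With 1 library left out *Serpina3c* ranged from -0.50 (without AAV-miR-34b/c library 6) to -0.16 (without AAV-GFP library 6), and *Serpina6* from -0.28 to -0.0058 (without AAV-GFP libraries 7 and 4). In *Serpina6* the AAV-miR-34b/c libraries had 56.0 to 113 CPM and the AAV-GFP libraries 59.4 to 169. Activated stellate cell markers summed to 46.2 to 84.7 CPM in AAV-miR-34b/c libraries, below all AAV-GFP libraries (2 of 3 tested fell). Endothelial markers summed to 213 to 261 CPM against 153 to 199.7 in AAV-GFP libraries, with no overlap (1 of 5 rose), and macrophage markers to 320 to 548 CPM against 246 to 375 (1 of 7 rose). The part of these cells in the serpin values was not tested.

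When AAV-miR-34b/c livers were set against vehicle, 4 of the 5 *Serpina1* copies rose, *Serpina1e* did not pass, and *Serpina3k* fell. These 5 of the 9 genes passed, against 21.9% of the 9290 genes tested. The median log2 fold change of the 9 was 0.53 against 0.02 over all genes. This comparison shares its groups with those above and adds no further mice. Neutrophil markers summed to 61.0 to 1922 CPM in AAV-miR-34b/c and 16.8 to 80.1 in vehicle libraries (3 of 3 tested rose). *Retnlg* again passed the filter through the group in which it was high. With at least 10 counts asked of every library, 2 of 2 tested rose. Cholangiocyte markers summed to 49.9 to 119 against 18.2 to 40.8 CPM (1 of 2 tested rose). Endothelial markers summed to 213 to 261 against 162 to 218 CPM (1 of 5 rose), and macrophage markers to 320 to 548 against 254 to 551 CPM (1 of 7 fell). The part of these cells in the serpin values was not tested.

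*Serpina1c* changed most, with 7520, 9093 and 12381 CPM at the lowest, median and highest AAV-miR-34b/c library, all above the 3963 to 6266 of vehicle (log2 fold change 0.91 ± 0.18, edgeR adjusted p = 0.00332). *Serpina1d*, which also carries tyrosine before the cut, had 4240, 6017 and 6984 CPM against 2781 to 4018 in vehicle, with no overlap (0.75 ± 0.17, adjusted p = 0.00734). *Serpina1b* had 4058, 5081 and 6011 CPM against 2914 to 3677, again with no overlap (0.58 ± 0.15, adjusted p = 0.0128). *Serpina1a* had 1998, 2496 and 2950 CPM against 1388 to 2033, where 6 of 7 libraries were above all vehicle libraries (0.55 ± 0.16, adjusted p = 0.0217). The calls for *Serpina1b*, *Serpina1c* and *Serpina1d* were kept in all 12 fits without 1 library. With library size only those for *Serpina1b* (0.44, adjusted p = 0.0525) and *Serpina1a* (0.41, adjusted p = 0.0908) were lost, and with close pairs summed those for *Serpina1b* (0.57, adjusted p = 0.155) and *Serpina1d* (0.74, adjusted p = 0.103) as well as the others. That for *Serpina1a* was lost without vehicle library 1 (0.48, adjusted p = 0.0670) or library 4 (0.48, adjusted p = 0.0700), and the reads of this copy are the least certain.

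*Serpina1e* was at 14281 ± 5490 CPM in AAV-miR-34b/c livers against 12442 ± 1525 in vehicle (log2 fold change 0.20 ± 0.23, edgeR adjusted p = 0.561), with 3 libraries above, 2 below and 2 within the range of vehicle. Its share was 37.8% ± 8.71 against 48.0% ± 2.48, a difference of -10.2 points (exact permutation p = 0.0379, adjusted p = 0.0710). Without AAV-miR-34b/c library 5 or library 7, the high ones, the difference was -12.0 or -12.2 points and passed (exact permutation, adjusted p = 0.0371 and 0.0278). The share of *Serpina1d* was 2.43 points higher than in vehicle (exact permutation, adjusted p = 0.0350), a call lost in 7 of 12 fits without 1 library, those without vehicle library 1, 2, 3 or 4 or AAV-miR-34b/c library 1, 2 or 6 (adjusted p = 0.0541 to 0.0974), and with close pairs summed (2.46 points, adjusted p = 0.214). With pairs summed the smallest exact permutation p possible here is 0.0286 before adjustment, so that a share could hardly pass. The 5 copies summed had a log2 fold change of 0.51 ± 0.18 (edgeR adjusted p = 0.0521).

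*Serpina3k* had 9666, 13164 and 13723 CPM at the lowest, median and highest AAV-miR-34b/c library against 17240, 13556, 19609, 17541 and 17206 in vehicle libraries. Of the 7 AAV-miR-34b/c libraries 5 were below all of these. The log2 fold change was -0.47 ± 0.16 (edgeR adjusted p = 0.0436, exact permutation p = 0.00379). The call was kept in 3 of the 12 fits without 1 library, those without vehicle library 2 or AAV-miR-34b/c library 1 or 2, and the other 9 gave adjusted p of 0.0517 to 0.0988 with log2 fold changes of -0.50 to -0.42. It was also lost without a filter on low counts (adjusted p = 0.0960) and with all 3 groups in a single edgeR fit (adjusted p = 0.108). *Serpina3m* (0.53 ± 0.28, adjusted p = 0.175), *Serpina3c* (-0.74 ± 0.36, adjusted p = 0.147) and *Serpina6* (-0.32 ± 0.22, adjusted p = 0.315) did not pass. With close pairs summed to 3 and 4 samples, 0 of the 9 genes (4 at an unadjusted p below 0.05) and 331 of all genes passed, with edgeR adjusted p of 0.0717 for *Serpina1c* and 0.323 for *Serpina3k*.

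How the genes varied from mouse to mouse within groups was described by correlating their log2 CPM deviations from the group mean over the 19 libraries. No test was made, since the genes of a library share its depth and scaling and close pairs may not be independent. *Serpina1a*, *Serpina1b*, *Serpina1c* and *Serpina1d* varied together, with Pearson r of 0.63 to 0.92 between them. *Serpina1e* had r of 0.07 with *Serpina1c*, 0.28 with *Serpina1b*, 0.46 with *Serpina1d* and 0.50 with *Serpina1a*. *Serpina3m* had negative r with all 5 copies, -0.51 with *Serpina1e* the furthest from 0, and 0.12 with its neighbour *Serpina3k*. *Serpina6* had r of 0.70 with *Serpina1a* and -0.43 with *Serpina3k*.

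**Figure D4:**
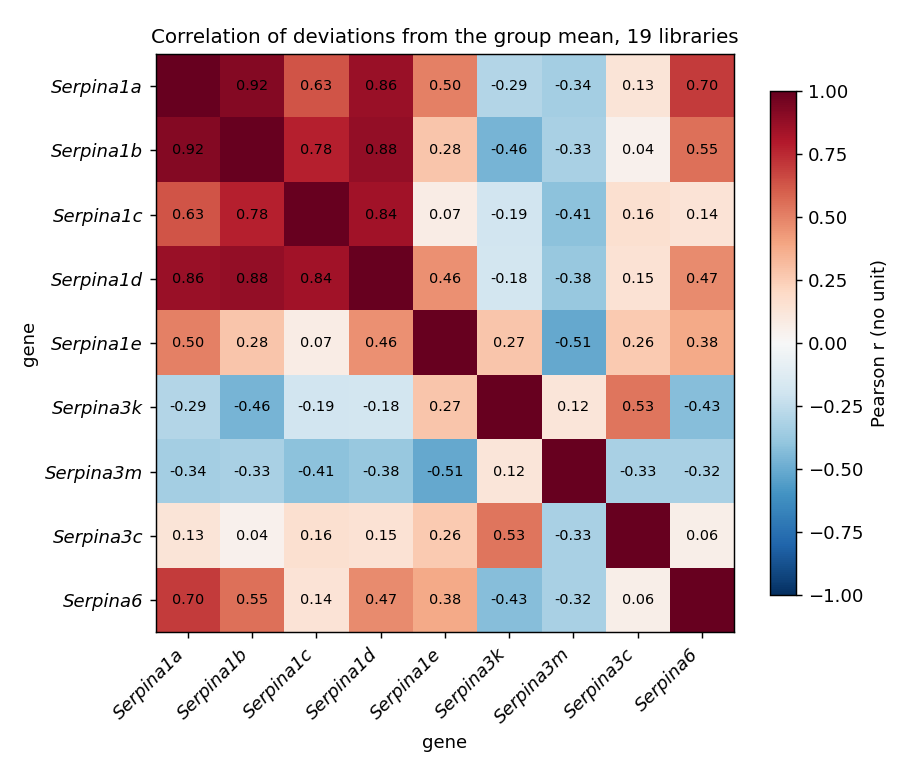
Pearson r (colour and printed value) between the deviations of log2 CPM from the group mean for each pair of the 9 genes over 19 libraries. Serpina1a to Serpina1d form a block with r of 0.63 to 0.92, and Serpina1e shares less of their variation, with 0.07 to 0.50.

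The promoters are shown because the copies moved differently while a stretch of their promoters is nearly the same. RefSeq promoter windows (GRCm38.p6, 250 bases before to 50 after the start) were found for 6 of the 9 genes, the 5 *Serpina1* copies and *Serpina3c*, and not for *Serpina3k*, *Serpina3m* and *Serpina6*. A stretch of 76 bases that lines up between the copies, though it does not lie at the same distance from the start, is printed, with the positions that differ in capitals, for the copy that rose and the copy that fell after TAA with AAV-GFP, on the minus strand at chr12:103904962-103905037 and chr12:103956960-103957035.
Serpina1c: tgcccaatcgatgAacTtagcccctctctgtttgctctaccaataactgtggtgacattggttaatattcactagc
Serpina1e: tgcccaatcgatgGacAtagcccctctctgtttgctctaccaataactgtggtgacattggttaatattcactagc

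The stretch ends 11 bases before the RefSeq start in *Serpina1c* and 62 bases before it in *Serpina1e*, against 0 to 10 in the other copies. These 2 stretches differ at 2 positions, and pairs of the 5 copies by 2 to 7 edits. TTGCNNAA, a form of the C/EBP motif, was searched for on both strands of the whole windows and was in the promoters of *Serpina1a*, *Serpina1b*, *Serpina1d* and *Serpina1e* (10.8% of the 32851 promoters of the table), and TTCNNNGAA, the STAT motif, in none of the 6 (8.30% of all).

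The genes around the 9 were counted by list. Of 17 other *Serpina* genes, 6 were tested in AAV-GFP against vehicle, of which 2 fell, and 5 in AAV-miR-34b/c against AAV-GFP, of which 2 rose. When at least 10 counts were asked of every library, 5 were tested in AAV-GFP against vehicle and 1 fell. *Serpina3n*, another antichymotrypsin copy, was at 291 ± 24.8 CPM in vehicle, 248 ± 103 in AAV-GFP and 1497 ± 522 in AAV-miR-34b/c livers (log2 fold change 2.58 ± 0.29 between the vectors, edgeR adjusted p = 3.92e-05). *Serpina10*, the inhibitor of coagulation factor Xa that needs protein Z, was at 561 ± 143, 361 ± 75.4 and 902 ± 367 CPM, and like *Serpina3m* it fell in the former comparison (-0.63 ± 0.19, adjusted p = 0.0305) and rose in the latter (1.31 ± 0.23, adjusted p = 0.00331). The fall was lost with all 3 groups in a single edgeR fit (0 of 7 tested passed) and with close pairs summed (0 of 8). Between the vectors 1 of 7 rose with close pairs summed. *Serpina12*, which encodes vaspin, fell in AAV-miR-34b/c against vehicle (-1.14 ± 0.21, edgeR adjusted p = 0.00182).

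Of 8 other plasma serpins, 2 rose and 1 fell in AAV-GFP against vehicle. With at least 10 counts asked of every library (7 tested) or with close pairs summed, 1 rose and 1 fell. *Agt*, which encodes angiotensinogen, rose from 373 ± 33.6 to 543 ± 104 CPM (edgeR adjusted p = 0.0374), and *Serpine2*, protease nexin, fell from 38.8 ± 17.0 to 5.32 ± 2.15 CPM (edgeR adjusted p = 7.88e-06). Between the vectors 0 of the 7 tested passed in edgeR, with 4 at an unadjusted p below 0.05, while 2 passed in DESeq2 and 1 in weighted limma-voom. Of 9 proteases that serpins inhibit, 4 were tested, of which 2 fell in AAV-GFP against vehicle and 1 rose between the vectors. *Prtn3*, proteinase 3 of neutrophils, was at 14.6 ± 10.2 CPM in vehicle, 3.03 ± 4.30 in AAV-GFP and 56.1 ± 32.0 in AAV-miR-34b/c livers. It fell in the first comparison and rose between the vectors (4.05 ± 0.61, edgeR adjusted p = 0.000776). It passed the filter through the groups in which it was high and was not tested in either comparison when at least 10 counts were asked of every library. Of the 3 proteases then tested, 1 fell in AAV-GFP against vehicle and 0 passed between the vectors. *Cela1*, a pancreatic-type elastase, fell in AAV-GFP against vehicle (-1.43 ± 0.28, adjusted p = 0.00284).

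Of 10 transcription factors known to act on the *Serpina1* promoter, 3 rose and 1 fell in AAV-GFP against vehicle. In this comparison 0 passed with close pairs summed. With all 3 groups in a single edgeR fit 2 rose and 0 fell, and without a filter on low counts 4 rose and 0 fell. Between the vectors 0 passed in edgeR (1 at an unadjusted p below 0.05), DESeq2 or weighted limma-voom. *Hnf4a* was at 115 ± 9.95 CPM in vehicle and 209 ± 50.9 in AAV-GFP livers (log2 fold change 0.86 ± 0.18, edgeR adjusted p = 0.00538), and at 266 ± 42.4 in AAV-miR-34b/c livers. *Onecut1* also rose (1.49 ± 0.46), and *Cebpd* fell (-0.69 ± 0.21). *Stat3*, the mediator of interleukin-6, rose in AAV-miR-34b/c against vehicle (1.26 ± 0.17, edgeR adjusted p = 0.000164), from 170 ± 24.8 to 406 ± 79.5 CPM. Of 11 genes for folding and export of alpha-1 antitrypsin, 2 rose in AAV-GFP against vehicle, *Syvn1* (0.92 ± 0.21) and *Sel1l* (0.65 ± 0.19), which act in the removal of misfolded protein. With all 3 groups in a single edgeR fit or with close pairs summed, 0 of the 11 passed in this comparison. In AAV-miR-34b/c against vehicle 5 rose, among them the chaperone gene *Calr* (0.78 ± 0.15, edgeR adjusted p = 0.00195). With close pairs summed 0 of the 11 passed there. Between the vectors 0 of the 11 passed in edgeR (0 at an unadjusted p below 0.05), DESeq2 or weighted limma-voom.

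Of 12 genes of corticosteroid action, in which *Serpina6* serves as carrier, 1 rose and 2 fell in AAV-GFP against vehicle. *Fkbp5*, a target of the glucocorticoid receptor, fell (-0.77 ± 0.24, edgeR adjusted p = 0.0413) and rose between the vectors (1.15 ± 0.25, adjusted p = 0.0121), while *Dusp1* moved in the opposite order (0.94 ± 0.28 and -0.91 ± 0.21, adjusted p = 0.0331 and 0.0212). With all 3 groups in a single edgeR fit, 0 of the 12 fell in AAV-GFP against vehicle. With close pairs summed, 0 of the 12 passed in either of these 2 comparisons.

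The genes most like a member were sought by Pearson r of the same deviations over 19 libraries among 2319 genes with a mean of at least 50 CPM. Deviations from the group mean leave out differences between groups, so a gene named here need not change between groups as the member did. For the *Serpina1* sum these were *Nop53*, a ribosome assembly factor (r = 0.92), *Pa2g4* (0.88) and *Rangap1* (0.87). For *Serpina3k* they were *Cox6c*, a cytochrome oxidase subunit (0.94), *Cops5* (0.93) and *Ssr4* (0.92), and for *Serpina6* *C8a*, a complement component (0.82), *Ivd* (0.80) and *Igf1* (0.80). For the 2 genes added after their values were seen, they were *Selenbp2* (0.92), *Aox3* (0.91) and *Sgk2* (0.84) for *Serpina1e*, and the kininogen genes *Kng1* and *Kng2* (0.90 for each) and *Hpx*, hemopexin (0.87) for *Serpina3m*.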

How the data were processed

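The authors deposited 1 table of counts per gene for all 19 libraries, without normalization, made with the sequencing provider's pipeline (QuantSeq 3′ kit, reads of 100 bases). Their processing notes name STAR and mm10. The annotation release, the strand setting and the use of molecular identifiers are not given in the sources used here, so counts may hold PCR copies. The labels call replicates biological, but the 7 pairs of libraries summed as close may be repeat libraries of 1 mouse. In that case p-values measure partly technical spread. The limit for a close pair marks no gap, since AAV-GFP libraries 3 and 4 were at 0.195 and libraries 2 and 3, not summed, at 0.197. Gene names were matched by Ensembl identifier to GENCODE annotation, for 31011 of 31053 genes.

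Changes were tested in edgeR 4.0.16 (R 4.3.3) with glmQLFit and glmQLFTest, after TMM scaling and filterByExpr (at least 10 counts, total at least 15), on the 2 groups compared, Benjamini-Hochberg adjustment over all genes tested and a threshold of 0.05. P-values of single genes and of shares within the *Serpina1* sum came from two-sided exact permutation tests (log2 CPM with a prior count of 2). On simulated counts the edgeR fits found 65%, 67% and 61% of genes changed 2-fold and 99%, 94% and 89% of those changed 4-fold in AAV-GFP against vehicle, AAV-miR-34b/c against AAV-GFP and AAV-miR-34b/c against vehicle. The simulation drew each library independently, without close pairs, and changed only genes above a lower limit of CPM. These rates may therefore be too high for the data. Alternatives were other filters and scalings, DESeq2 1.42.0, voom in limma 3.58.1 with libraries weighted by quality, all groups in a single fit, the replicate number as a block, close pairs summed, the copies summed, and each library left out. The named genes are the 9 members, up to 4 called genes of each list with the smallest adjusted p, and the 3 genes most like the *Serpina1* sum, *Serpina3k* and *Serpina6*. Some genes of these lists are not reported here. The members and lists were chosen with earlier results of these data known.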

Additional observations from a re-analysis of the deposited data

How the results depend on the processing

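Reads of stretches that are identical between *Serpina1* copies cannot be assigned to 1 of them, and *Serpina3c* had 5 to 29 counts in a library, so that it had no value when at least 10 counts were asked of every library. Summing close pairs leaves fewer samples, which by construction lowers the number of calls. For the other changes named here the cause was not tested.

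In AAV-GFP against vehicle, the genes called were 1211 in edgeR as reported, 2690 with limma-voom with sample quality weights (weighted limma-voom, which changes the tool and the weight of each library together), 3089 with the replicate block and 193 with close pairs summed, and 689 to 1859 with 1 library left out (728 without vehicle library 1, 689 without vehicle library 4, 807 without AAV-GFP library 3 and 1859 without AAV-GFP library 6). Without a filter on low counts 1 of the 9 members was called, with 1374 of all 16425 genes tested. With weighted limma-voom 5 were called, with 2690 of 9522 genes, and with the replicate block 5, with 3089 of 9273. Close pairs summed gave 0, with 193 of 10547 genes. With 1 library left out 0 to 3 members were called (0 without vehicle library 1 or 4, 1 without AAV-GFP library 1 or 3). *Serpina6* turned to 0.0177 with weighted limma-voom and 0.0412 with the block, and ranged from -0.33 to 0.0727 (without vehicle library 2) with 1 library left out. The *Serpina1* sum was -0.0116 with close pairs summed and -0.0247 to 0.0856 with 1 library left out. The *Serpina3* sum holds *Serpina3k*, *Serpina3m* and *Serpina3c* only, without *Serpina3n*, and is mostly *Serpina3k* (17030 of 17349 CPM in vehicle). It passed at -0.55 with weighted limma-voom and -0.65 with the block, and *Serpina3k* alone was at -0.55 and -0.65. The *Serpina1e* share difference with close pairs summed was -17.6 points.

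In AAV-miR-34b/c against AAV-GFP, the genes called were 311 as reported, 619 with library size only (119 higher and 500 lower, against 180 and 131 with TMM), 542 with DESeq2, 817 with weighted limma-voom, 142 with the replicate block and 69 with close pairs summed. The members called were 2 with DESeq2 (542 of 9252 genes) and 4 with weighted limma-voom (817 of 9252). With all 3 groups in a single fit 2 were called (438 of 9928 genes). With close pairs summed 0 were called (69 of 10642 genes), with 3 at an unadjusted p below 0.05 in edgeR. With 1 library left out 1 to 2 members and 209 to 343 of all genes were called (2 members without AAV-GFP library 6 or AAV-miR-34b/c library 1 or 2). *Serpina1b* was -0.0185 with library size only, where the median of all genes was -0.20. *Serpina3k* ranged from -0.22 to 0.0552 and the *Serpina3* sum from -0.18 to 0.0869 with 1 library left out, above 0 in each case without AAV-GFP library 6. The *Serpina1* sum passed at 0.47 with DESeq2 and 0.56 with weighted limma-voom. The *Serpina1e* share difference was 5.79 to 9.78 points with 1 library left out.

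In AAV-miR-34b/c against vehicle, the genes called were 2037 as reported, 3839 with weighted limma-voom, 922 with the replicate block and 331 with close pairs summed, and 1267 to 2696 with 1 library left out (1328 without vehicle library 1, 1267 without vehicle library 4). With library size only, where the median of all genes was -0.13, 730 genes were higher and 1615 lower, against 1131 and 906 with TMM. The members called were 3 with library size only (2345 of 9290 genes), 2 with the replicate block (922 of 9053) and 0 with close pairs summed (331 of 10604). With 1 library left out 3 to 5 members were called (3 without vehicle library 1 or 4). *Serpina1e* was -0.0491 with the block. The *Serpina1* sum passed at 0.51 with DESeq2, 0.62 with weighted limma-voom and 0.51 with all 3 groups in a single fit, and was 0.46 to 0.57 with 1 library left out. The *Serpina3* sum passed at -0.59 with library size only, -0.45 with DESeq2 and -0.56 with weighted limma-voom, and was -0.52 to -0.39 with 1 library left out. The *Serpina1e* share difference was -12.2 to -8.61 points with 1 library left out.

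Replicate numbers were checked as pairs. Same-numbered libraries had correlations of deviations between -0.49 and 0.57, and in each comparison 2 were over 0.1, so the numbers do not pair the mice and the block is given only here. With it *Serpina1b* (0.56, adjusted p = 0.0798), *Serpina1a* (0.51, adjusted p = 0.117) and *Serpina3k* (-0.52, adjusted p = 0.141) did not pass against vehicle in AAV-miR-34b/c livers, and *Serpina1b* (0.47, adjusted p = 0.0366) and *Serpina3k* (-0.65, adjusted p = 0.00633) passed in AAV-GFP livers. Libraries 6 and 7 have no vehicle library of the same number, so under the block they add nothing to these contrasts. Among them is AAV-GFP library 6, the high one for *Serpina3k*. Between the vectors 0 of the 3 neutrophil markers tested passed with it in edgeR (3 at an unadjusted p below 0.05), against 3 in edgeR as reported.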
